A study of Mus musculus with 10 samples.

Results

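The complement components described here are 9 genes that were listed by name: the C1q chain genes C1qa, C1qb and C1qc, the protease genes C1ra and C1s1, the central components C3, C4b and Cfb, and the inhibitor gene Serping1. They are 9 of the 55536 genes counted, and all 9 passed the filter on low counts in every comparison. RNA was sequenced from bladder tissue of C57BL/6 mice in 10 libraries: 4 wild type (WT), 3 OMD-/- and 3 PRELP-/-. OMD (osteomodulin) and PRELP are small leucine-rich proteins of the extracellular matrix, and the study asked how the bladder transcriptome changes when either is missing. Both knockouts are constitutive, were made by targeting exons 2 and 3, and carry a knocked-in β-galactosidase gene. The labels spell the PRELP genotype PRLEP-/-. The study's text describes the sequenced material as epithelium isolated from the bladders of mice and gives group sizes that differ from those of the labels, whose bladder tissue and group sizes are followed here. Values of fibroblast, macrophage and muscle markers are to be read with that difference in mind. Age, sex, any pooling and the mouse behind each library are not given for these libraries in the sources used here, so p-values measure the spread between libraries, which may be technical.

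Complement is a set of secreted proteins that coat targets for uptake, attract leukocytes and, at their end point, pierce membranes. In the classical pathway the bundle-shaped protein C1q, built of A, B and C chains, binds a surface, and the attached proteases C1r and C1s then cut C4 and C2. C3 is the hub at which the classical, lectin and alternative pathways meet, factor B (Cfb) is the catalytic part of the alternative pathway, and C1 inhibitor (Serping1) inactivates C1r and C1s. The liver makes most circulating complement, whereas in other tissues C1q comes chiefly from macrophages and dendritic cells and C1r, C1s, C3, C4 and C1 inhibitor largely from fibroblasts and other stromal and epithelial cells.

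Where reads could be shared between near-identical genes matters for C4b. Its neighbour C4a encodes a close copy, and the coding sequence of C4b was 96.1% identical to the C4a transcript over 5207 aligned bases. The stretch of 90 bases in exon 21 with the most differences is shown on the strand of transcription, 5′ to 3′, with the 14 differing bases in capitals (C4b, GRCm38 chr17:34735430-34735519, minus strand, and C4a, chr17:34816086-34816175, minus strand):
C4b: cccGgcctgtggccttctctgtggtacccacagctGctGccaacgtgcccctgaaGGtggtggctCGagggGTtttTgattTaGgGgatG
C4a: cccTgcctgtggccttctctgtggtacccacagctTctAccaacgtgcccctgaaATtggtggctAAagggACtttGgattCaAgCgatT
Reads can be placed in such a stretch, but 35.2% of all 50-base words of the C4b transcript also occur in C4a. The matching shares were 48.0% for C1ra with C1rb and 24.3% for C1s1 with C1s2, and 0 for the C1q chains with each other, so values of C4b, C1ra and C1s1 are uncertain to the extent that such reads were dropped or divided. Cfb overlaps a read-through gene, Gm20547, on the same strand over 2246 of its 2825 exon bases. Gm20547 was counted at 0 in all 10 libraries, and the low Cfb counts, 15 to 115 per library, may lack the reads of that overlap. C1s1 shares 576 exon bases with the antisense gene Gm16567.

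The members lie in 4 places of the mouse genome (GRCm38). C1qa (chr4:136895917-136898803), C1qc (chr4:136889804-136893065) and C1qb (chr4:136880129-136886187) are side by side on the minus strand of chromosome 4. C1ra (chr6:124512405-124523443, plus strand) and C1s1 (chr6:124530345-124542359, minus strand) are neighbours on chromosome 6. C4b (chr17:34728380-34743882) and Cfb (chr17:34856374-34862518) share the minus strand of the major histocompatibility region of chromosome 17, C3 (chr17:57203970-57228136) is farther along it, and Serping1 (chr2:84765387-84775444) is on chromosome 2. RefSeq promoter windows, 250 bases before to 50 bases after the annotated start (GRCm38.p6), matched 5 of the 9 members: C1qb, C1qc, C1ra, C1s1 and C3. Over the 10 libraries Pearson r of log2 level was 0.954 for C1qb with C1qc and 0.889 for C1ra with C1s1. Such values were not particular to neighbours: C1ra reached 0.98 with Serping1 on chromosome 2, and C1s1 0.941 with C3 on chromosome 17. The windows of the 2 neighbouring pairs are shown, with capitals for matches to the letters TTNNGCAA (C/EBP-like), TTCNNNGAA (STAT GAS) or GAGGAAG (PU.1-like):
C1qb (chr4:136886151-136886450, minus strand): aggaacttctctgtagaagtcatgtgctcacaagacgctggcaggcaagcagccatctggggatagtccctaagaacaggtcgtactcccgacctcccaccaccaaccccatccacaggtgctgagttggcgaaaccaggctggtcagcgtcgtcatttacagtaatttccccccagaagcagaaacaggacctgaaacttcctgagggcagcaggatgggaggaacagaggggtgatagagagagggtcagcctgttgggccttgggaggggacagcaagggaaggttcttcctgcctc
C1qc (chr4:136892865-136893164, minus strand): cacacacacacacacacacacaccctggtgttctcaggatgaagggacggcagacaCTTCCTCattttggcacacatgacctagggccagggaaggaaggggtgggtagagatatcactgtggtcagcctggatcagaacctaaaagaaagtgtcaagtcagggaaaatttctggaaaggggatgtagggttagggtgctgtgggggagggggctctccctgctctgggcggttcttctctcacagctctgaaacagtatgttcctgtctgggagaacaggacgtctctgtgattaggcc
C1ra (chr6:124512371-124512670, plus strand): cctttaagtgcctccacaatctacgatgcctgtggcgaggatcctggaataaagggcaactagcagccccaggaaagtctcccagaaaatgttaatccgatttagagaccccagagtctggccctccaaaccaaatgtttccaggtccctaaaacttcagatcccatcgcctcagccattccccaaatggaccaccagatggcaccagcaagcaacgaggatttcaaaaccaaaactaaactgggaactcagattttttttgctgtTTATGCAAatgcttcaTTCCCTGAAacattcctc
C1s1 (chr6:124542310-124542609, minus strand): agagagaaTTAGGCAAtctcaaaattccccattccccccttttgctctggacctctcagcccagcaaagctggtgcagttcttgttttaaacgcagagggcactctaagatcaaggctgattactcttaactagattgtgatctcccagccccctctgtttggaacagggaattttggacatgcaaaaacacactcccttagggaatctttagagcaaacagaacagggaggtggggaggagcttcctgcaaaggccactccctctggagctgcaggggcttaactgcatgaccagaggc
TTNNGCAA, searched on both strands, occurred in 3 of the 5 windows, those of C1ra, C1s1 and C3, and in 10.8% of all 32851 windows of the same length. GAGGAAG occurred in the C1qc window alone among the 5 and in 13.6% of all windows, and TTCNNNGAA in the C1ra window alone and in 8.3% of all. In C1ra the TTNNGCAA match starts at +17 and the TTCNNNGAA match at +33 from the RefSeq start, and the matches do not overlap. The letters TGANTCA (AP-1) were found in none of the 5 windows, against 7.81% of all, and neither were the interferon response element and NF-kB-like motifs, against 3.44% and 1.47% of all. GGGCGG (GC box) was in the C1qc window and in 35.7% of all, and TATAAA in the C3 window and in 13.6% of all.

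Before the results, the libraries need a description. Each held 20391437 to 46269079 counted reads, the deepest being WT replicate 1. Prelp, the gene for PRELP, had 46 to 74 counts in the PRELP-/- libraries against 4848 or more in every other library. Omd was counted 0 times in the OMD-/- libraries, 0 to 12 times in WT and 5 to 7 times in PRELP-/-, so it gives little check of the OMD label. The 4 Y-linked genes and Xist, which mark male and female tissue, split the WT group: replicates 1 and 2 had 163 or more summed Y-gene CPM (counts scaled to a common library size), replicates 3 and 4 had at most 0.0443, with Xist at 1020 or more. All 3 OMD-/- libraries and PRELP-/- replicates 2 and 3 carried both kinds, with Y genes at 0.731 to 18.8 CPM and Xist at 38.2 to 88.8 CPM. PRELP-/- replicate 1 was like WT replicates 1 and 2 in this, at 120.0 and 0.398 CPM, and stood apart elsewhere too: its globin and Alas2 transcripts summed to 474 CPM against 35.4 to 69.6 in the other 9 libraries, and its TMM scaling factor was the lowest, 0.816. Counts of complement genes that passed in PRELP-/-, correlations between members and the changes of C1ra, C1s1, Serping1 and Cfb are given with and without it. For C3 only whether it passed is given without it, and for the C1q chains and C4b no change without it is given. Within groups, OMD-/- replicates 2 and 3 and PRELP-/- replicates 2 and 3 differed least, with a chi-square per gene of 3.10 and 3.57 against 8.30 to 223 for the other pairs; a value of 1 would be sampling noise, and all were kept as separate libraries. Of the cell types of the labelled tissue, markers of umbrella cells summed to 8564 to 20803 CPM, of fibroblasts to 9166 to 23448 CPM and of smooth muscle to 256 to 1390 CPM. Of 8 hepatocyte transcripts, Alb, Fga, Fgb, Fgg and Serpina1a were at 0 counts in every library and Apoa1 had at most 2, whereas Apoa2 had 0.411 to 1.36 CPM and Ttr 27.8 to 77.4 CPM.

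In WT bladder the levels of the members per kilobase of exon (RPKM, which is CPM divided by exon length) spanned a wide range. Serping1 led at 187 ± 12.2 RPKM (SD, n = 4), followed by C1s1 at 63.9 ± 7.96, C1qa at 38.4 ± 3.41, C1qb at 30.3 ± 2.65, C1ra at 26.9 ± 1.79, C1qc at 20.4 ± 1.58, C3 at 14.8 ± 4.17, C4b at 11.7 ± 2.45 and Cfb at 0.536 ± 0.137. Ranges over the 4 WT libraries overlapped for C1qb and C1ra, for C1qc and C3 and for C3 and C4b, so the order within these pairs is not settled, and the other neighbours did not overlap. Thus the inhibitor of the classical pathway was the most abundant of the 9 transcripts per length and the alternative pathway protease gene the least.

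Loss of OMD went with higher levels of every member. In OMD-/- all 9 were called higher than in WT, with log2 fold changes of 0.72 to 1.42, and in all 9 each OMD-/- library lay above each WT library. Across all 16647 genes tested, 29.4% were called, 14.3% higher and 15.1% lower, 19.2% had every OMD-/- library above every WT library and 19.7% every one below. The median log2 fold change was 1.14 over the members and -0.00020 over all genes tested. The members were chosen with earlier results of these data known, so these shares and medians are descriptions and no test of the set. In PRELP-/- the 3 called members were C1qa, C1qc and C4b, all higher, where 7.29% of 16581 genes were called, 1.4% higher and 5.89% lower. The 3 C1q chains and C4b, 4 of the 9, had every PRELP-/- library above every WT library, as had 13.6% of genes, while 16.4% had every one below. Left without replicate 1, the PRELP-/- group had 7 members called, all higher, against 22.2% of 17120 genes called and 10.7% called higher. Both comparisons share the 4 WT libraries.

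**Figure D1:**
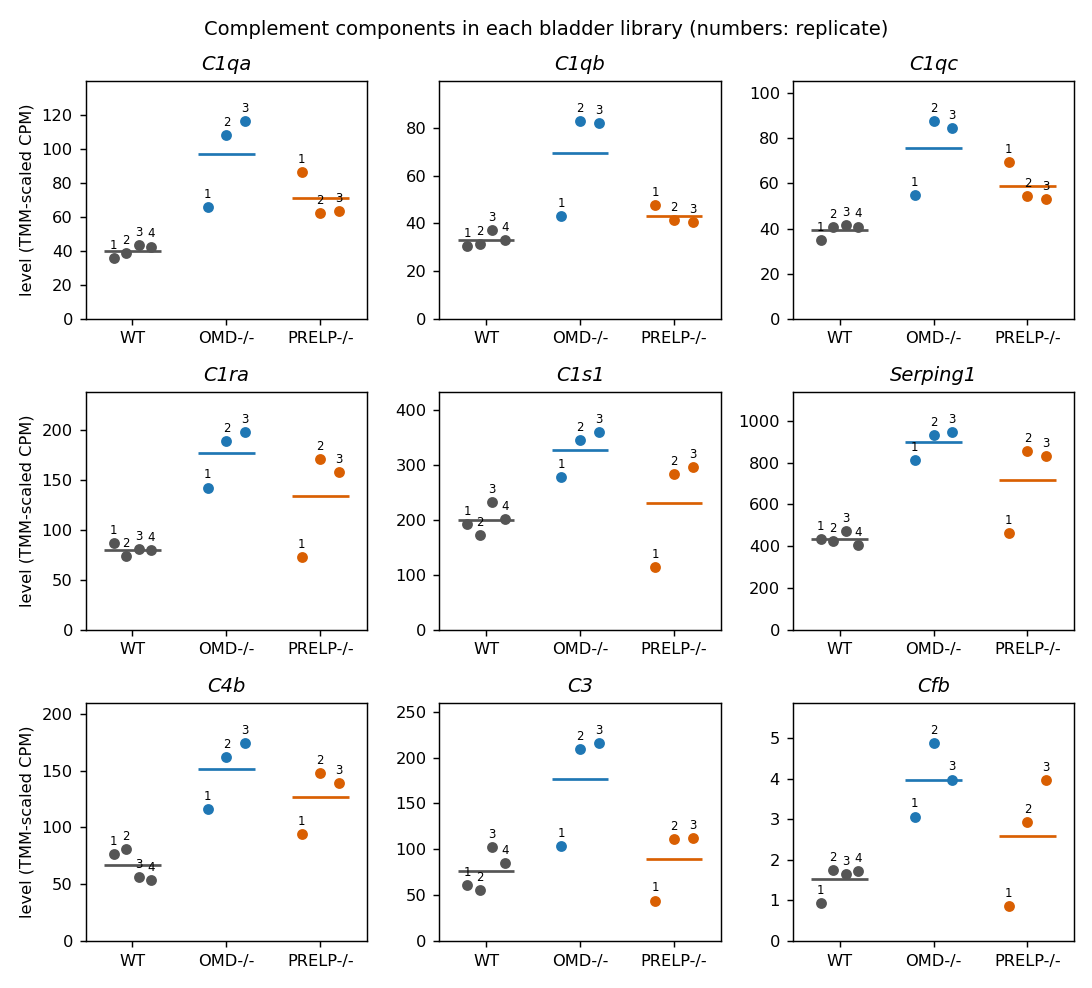
Level of each member in every library, in CPM scaled by TMM, with each y axis starting at 0. Points are libraries, numbers are replicates and horizontal lines are group means; all 3 OMD-/- points lie above all 4 WT points in each of the 9 panels, while PRELP-/- replicate 1 lies below all WT points for C1ra, C1s1, C3 and Cfb and within the WT range for Serping1, at 463 CPM.

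C1qa, the A chain of C1q, stood at 35.5, 38.7, 43.2 and 42.4 CPM in WT, at 65.8, 108 and 116 CPM in OMD-/- and at 86.4, 62.2 and 63.3 CPM in PRELP-/- (replicates in order, as in all lists of levels here). Neither knockout group overlapped WT, and the OMD-/- group held the 2 highest libraries. The log2 fold change was 1.28 ± 0.18 (SE, adjusted p = 0.00079 by edgeR's quasi-likelihood test) in OMD-/- and 0.80 ± 0.15 (adjusted p = 0.0179) in PRELP-/-. C1qb, the B chain, had 30.6, 31.2, 37.0 and 32.9 CPM in WT, 43.2, 83.0 and 81.9 CPM in OMD-/- and 47.6, 41.4 and 40.4 CPM in PRELP-/-. The groups were again separate from WT, but the PRELP-/- libraries lay close to it. The change in OMD-/- was 1.08 ± 0.21 (adjusted p = 0.00453), and that in PRELP-/-, 0.37 ± 0.13, did not pass (adjusted p = 0.121). C1qc, the C chain, had 34.9, 40.6, 41.5 and 40.9 CPM in WT, 55.0, 87.9 and 84.7 CPM in OMD-/- and 69.5, 54.5 and 53.0 CPM in PRELP-/-. It was the chain that rose least in OMD-/-, by 0.95 ± 0.15 (adjusted p = 0.00161), and it was called in PRELP-/- by a small margin, at 0.56 ± 0.14 (adjusted p = 0.0485). In each chain OMD-/- replicate 1 was the lowest of its group, and PRELP-/- replicate 1 the highest of its own.

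The chains kept unequal proportions. Per length, the ratio of C1qb to C1qa was 0.742 to 0.825 in WT, 0.628 to 0.736 in OMD-/- and 0.526 to 0.637 in PRELP-/-. The ratio of C1qc to C1qa was 0.518 to 0.565 in WT, 0.392 to 0.451 in OMD-/- and 0.433 to 0.472 in PRELP-/-. Every knockout library was thus below every WT library in each ratio, with C1qa up more than its partners; these ratios are given as descriptions, without a test. The level of a ratio depends on the exon lengths used, 1931 bases for C1qc and 1040 for C1qa. Mean CPM of these 2 genes in WT were nearly equal, at 39.5 and 39.9. C1q is assembled from equal numbers of the chains, so the ratios concern transcripts and not the protein.

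C1ra encodes C1r, the protease that activates C1s. It had 86.7, 73.7, 80.6 and 79.9 CPM in WT, 142, 189 and 198 CPM in OMD-/- and 72.6, 171 and 158 CPM in PRELP-/-. OMD-/- was far above WT (1.14 ± 0.12, adjusted p = 9.14e-05), while PRELP-/- replicate 1 fell below all WT libraries and its group-mates lay far above them. With that library the change in PRELP-/- was 0.73 ± 0.27 (adjusted p = 0.134), and without it 1.05 (adjusted p = 0.000202). C1s1 encodes C1s, which cuts C4 and C2, and had 193, 172, 232 and 202 CPM in WT, 279, 345 and 360.5 CPM in OMD-/- and 114, 284 and 297 CPM in PRELP-/-. It had the smallest change of the members in OMD-/-, 0.72 ± 0.12 (adjusted p = 0.00189). In PRELP-/- the change of 0.20 ± 0.31 (adjusted p = 0.710) became 0.55 (adjusted p = 0.0121) without replicate 1. C1s1 was thus lower relative to C1ra: per length, C1s1 to C1ra was 2.12 to 2.74 in WT, 1.73 to 1.87 in OMD-/- and 1.5 to 1.79 in PRELP-/-, with no overlap between either knockout and WT.

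Serping1, the C1 inhibitor gene, had 432, 425, 474 and 407 CPM in WT, 813, 932 and 947 CPM in OMD-/- and 463, 856 and 830.4 CPM in PRELP-/-. The OMD-/- libraries were tightly grouped well above WT, and this was the member with the lowest adjusted p there (1.05 ± 0.094, adjusted p = 3.95e-05). PRELP-/- replicate 1 was within the WT range, and the change was 0.71 ± 0.23 (adjusted p = 0.0962) with it and 0.97 (adjusted p = 0.000236) without it. Relative to C1s1, which encodes 1 of its target proteases, Serping1 per length was 2.71 to 3.32 in WT, 3.54 to 3.92 in OMD-/- and 3.77 to 5.46 in PRELP-/-. All 6 knockout libraries were above all WT libraries in that ratio. C1ra, which encodes its other target, changed about as much as Serping1. The log2 fold changes of C1ra and Serping1 were 1.14 and 1.05 in OMD-/- and 0.73 and 0.71 in PRELP-/-. The rise of the ratio thus holds for C1s1, and the ratio to C1ra was not taken.

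C4b encodes C4, the first substrate of C1s, and had 76.8, 80.6, 56.0 and 53.5 CPM in WT, 117, 162 and 174 CPM in OMD-/- and 94.0, 148 and 139 CPM in PRELP-/-. WT replicates 1 and 2 were above replicates 3 and 4, and every knockout library was above all 4. The change was 1.18 ± 0.18 (adjusted p = 0.00116) in OMD-/- and 0.91 ± 0.22 (adjusted p = 0.0437) in PRELP-/-. C3, the hub, had 61.5, 55.6, 102 and 84.5 CPM in WT, 104, 209 and 216 CPM in OMD-/- and 44.1, 111 and 112 CPM in PRELP-/-. Its WT libraries split the other way, with replicates 3 and 4 higher, and OMD-/- replicate 1 exceeded the highest WT library only slightly. The change in OMD-/- was 1.22 ± 0.31 (adjusted p = 0.0251) and passed in 8 of 15 alternative fits, with a highest adjusted p of 0.149 when only WT replicates 3 and 4 were kept. Single libraries decided that call: it was lost without WT replicate 1 (adjusted p = 0.0502), WT replicate 4 (0.0765), OMD-/- replicate 2 (0.0757) or OMD-/- replicate 3 (0.0759). In PRELP-/- the change of C3 was 0.22 ± 0.35 (adjusted p = 0.711), and it did not pass without replicate 1 either. Per length, C4b to C3 was 0.495 to 1.31 in WT, 0.701 to 1.02 in OMD-/- and 1.12 to 1.92 in PRELP-/-, so these ranges overlapped.

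Cfb, the factor B gene, was the scarcest member, at 0.938, 1.75, 1.64 and 1.73 CPM in WT, 3.06, 4.88 and 3.98 CPM in OMD-/- and 0.852, 2.93 and 3.95 CPM in PRELP-/-. It had the largest change of the 9 in OMD-/-, 1.42 ± 0.28 (adjusted p = 0.00433), and each OMD-/- library exceeded each WT library. In PRELP-/- the change was 0.79 ± 0.47 (adjusted p = 0.314), with replicate 1 below WT and the others above, and without replicate 1 it was 1.22 (adjusted p = 0.0234).

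**Figure D2:**
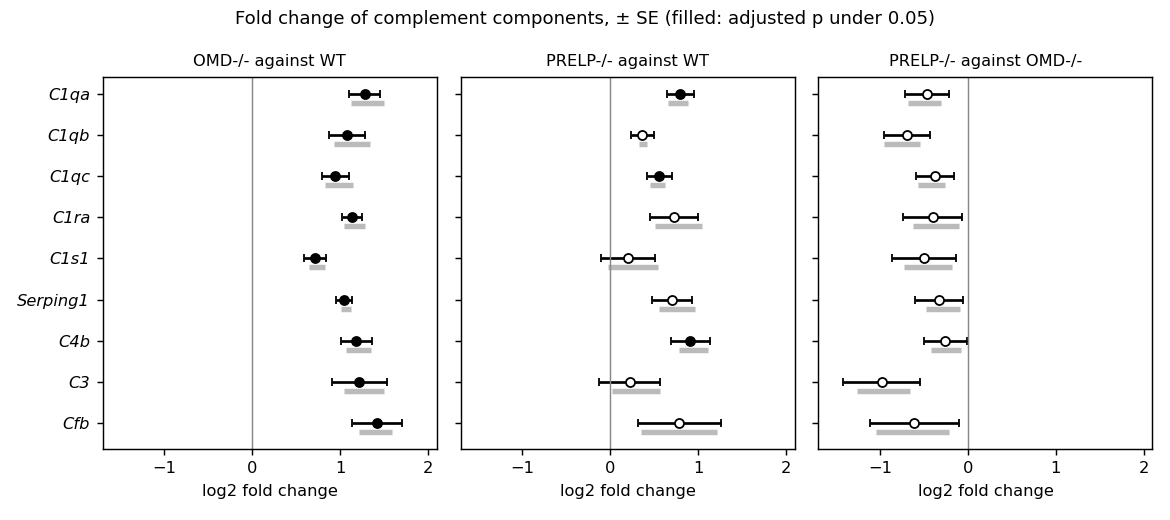
Log2 fold change of each member in 3 comparisons, with the SE as bars; filled points passed an adjusted p of 0.05 and open points did not. Grey bars span the fits that leave out 1 library; all 9 points are filled against WT for OMD-/-, 3 for PRELP-/-, and none between the knockouts, where all 9 lie below 0.

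The calls in PRELP-/- rested on few libraries. C1qa, C1qc and C4b each lost the call when any WT library was left out, so that 0 members passed in those fits, with adjusted p values of 0.0552 to 0.0636 for C1qa, 0.115 to 0.132 for C1qc and 0.0705 to 0.135 for C4b. C1qc and C4b also lost it without PRELP-/- replicate 2 or 3, where 1 member passed. None of the 3 passed with only WT replicates 1 and 2 or only WT replicates 3 and 4, and their fold changes stayed above 0 in all 15 alternative fits. In OMD-/- the members that did not pass in those 2 subsets were C3 and C1qb (adjusted p = 0.072 and 0.0684 for C1qb).

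Between the knockouts no member passed by edgeR's quasi-likelihood test, where 1 of 15805 genes, 0.00633%, was called and 43 with the replicate block. All 9 fold changes were below 0, lower in PRELP-/-, with a median of -0.46 against -0.0020 over all genes tested. No member had separate groups, where 6.38% of genes had every PRELP-/- library above every OMD-/- library and 8.72% every one below. Set side by side by replicate number, 6 members (C1ra, C1s1, C3, C4b, Cfb and Serping1) were lower in PRELP-/- in all 3 pairs, as were 21.8% of genes tested, and the C1q chains in 2 of 3. With the replicate block no member passed either, the lowest adjusted p being 0.115, for C3 (-1.03). C3 had the largest, -0.98 ± 0.43, and C4b the smallest, -0.26 (adjusted p = 0.690 for 8 members and 0.695 for C4b). C1qb alone had an unadjusted p under 0.05, 0.0334, at -0.70. DESeq2 called 0 members and limma-voom with sample weights 3, the C1q chains, at -0.75 for C1qa, -0.91 for C1qb and -0.61 for C1qc. The larger count of calls in OMD-/- against WT therefore does not show that the knockouts differ.

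How the members varied together within groups depended on 1 library. After subtraction of group means from log2 CPM, the C1q chains correlated with each other at r = 0.93 to 0.975 over the 10 libraries, and C1ra, C1s1 and Serping1 at r = 0.958 to 0.976, while between these sets r was -0.261 to 0.124. Without PRELP-/- replicate 1 the C1q chains kept r = 0.96 to 0.972 over 9 libraries, C1ra, C1s1 and Serping1 were at 0.701 to 0.797, and between the sets r was 0.671 to 0.853. The apparent split of the members is therefore the pattern of that library, in which the C1q chains averaged 1.77 times the WT mean and the other 6 members 0.795 times. In PRELP-/- replicates 2 and 3 the order was the reverse, 1.39 and 1.38 times for the C1q chains and 1.83 and 1.89 times for the others. OMD-/- replicate 1 had 1.44 and 1.68 times, and replicates 2 and 3 had 2.47 and 2.5 times for the C1q chains and 2.4 times for the others. OMD-/- replicate 1 was thus low in both sets, and how far the r over 9 libraries rests on it was not tested. C4b was the member least tied to the rest without that library, at r = -0.0353 to 0.549. These correlations are over libraries that share scaling and are given as descriptions.

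Markers of macrophages and fibroblasts, neither list holding a member, followed the members only in part. The macrophage sum overlapped WT in OMD-/-, through replicate 1 at 542 CPM, and in PRELP-/-. In bulk tissue a change in the number of cells of a type and a change in RNA per cell cannot be told apart. The 16 macrophage markers summed to 472 to 551 CPM in WT, 542, 1014 and 1028 CPM in OMD-/- and 433, 572 and 564 CPM in PRELP-/-. In OMD-/- 10 of 16 were called higher, among them Csf1r (1.13, adjusted p = 0.00179), the receptor on which macrophages depend, Adgre1 (1.004, adjusted p = 0.00152), which encodes F4/80, and Cd68 (1.13, adjusted p = 0.00645). In PRELP-/- edgeR called only Laptm5 of the 16 (0.90, adjusted p = 0.0159), with 5 at an unadjusted p under 0.05. DESeq2 called 1 higher and 1 lower there and limma-voom 7 higher and 1 lower, and 14 of the 16 fold changes were above 0, with a median of 0.24. The sum was weighted by Lyz2, which made up 20.8% to 44.9% of it and lay below WT in all 3 PRELP-/- libraries (-0.72, adjusted p = 0.0912). In PRELP-/- replicate 1 the sum was 0.847 times the WT mean with Lyz2 and 1.16 times without it, a choice made after its values were seen, with the C1q chains at 1.77 times. In PRELP-/- replicates 2 and 3 the sum without Lyz2 was 1.4 and 1.39 times the WT mean. In OMD-/- replicate 1 the macrophage sum was 1.06 times with Lyz2 and 1.29 times without it, and the C1q chains 1.44 times. The 12 fibroblast markers summed to 9166 to 10392 CPM in WT, 19448, 22881 and 23448 CPM in OMD-/- and 11209, 21454 and 20988 CPM in PRELP-/-. That sum was weighted by Col1a1, Col1a2 and Col3a1, with means of 4056, 4357 and 3181 CPM over all libraries. Over the 12 markers the median log2 fold change was 0.72 in OMD-/- and 0.54 in PRELP-/-, with 11 and 10 above 0. PRELP-/- replicate 1 was the lowest of its group in this sum, as it was for C1ra, C1s1, Serping1, C3, C4b and Cfb. In OMD-/- 7 of 12 were called higher, such as Pdgfra (1.12, adjusted p = 0.000736) and the collagen gene Col1a1 (1.58, adjusted p = 0.000141), and in PRELP-/- 2 of 12, Col1a1 (1.31, adjusted p = 0.0263) and Col1a2 (1.13, adjusted p = 0.0397) by edgeR. For that list in PRELP-/- 5 had an unadjusted p under 0.05, DESeq2 called 4 higher and 1 lower, and limma-voom 7 higher and 1 lower. The part of either cell type in the levels of the members was not tested.

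**Figure D3:**
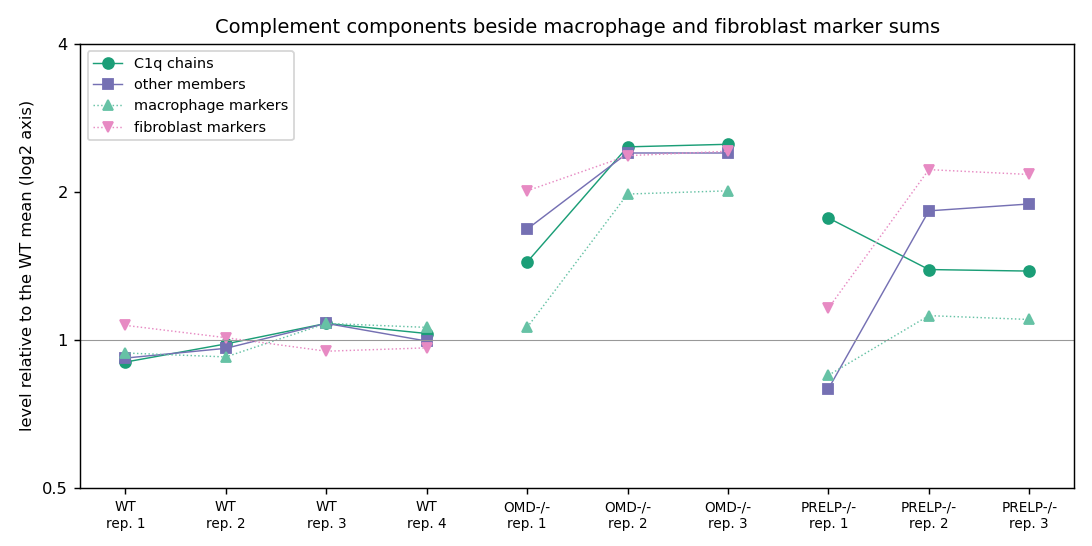
Level of each library relative to the WT mean, on a log2 axis, for the geometric mean of the 3 C1q chains, that of the other 6 members, and the summed macrophage (Lyz2 included) and fibroblast markers. In PRELP-/- replicate 1 the C1q chains were at 1.77 and the other members at 0.795, whereas in PRELP-/- replicates 2 and 3 the other members were at 1.83 and 1.89.

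Other cell types and responses were read from further lists. The 10 lymphocyte markers summed to 9.50 to 14.1 CPM in WT, 18.1, 81.6 and 82.4 CPM in OMD-/- and 15.5 to 20.1 CPM in PRELP-/-; 8 were called higher in OMD-/-, with the B cell genes Ms4a1 (4.99, adjusted p = 0.00402) and Cd79a (4.21, adjusted p = 0.00256) among them, and 0 in PRELP-/-. By DESeq2 and limma-voom the PRELP-/- count for lymphocytes was 1 and 3, and 2 had an unadjusted p under 0.05. Of 7 tested acute phase and NF-kB genes, 3 were called higher in OMD-/- (Nfkb2, Relb and Tnfaip3) and 0 in PRELP-/-, where 1 had an unadjusted p under 0.05, DESeq2 called 0 and limma-voom 1. Umbrella cell markers were called higher by edgeR for 2 of 7 in OMD-/- and 1 of 7 in PRELP-/-, where 5 had an unadjusted p under 0.05, DESeq2 called 4 and limma-voom 5, all higher. Basal urothelium markers were called for 2 of 5 in OMD-/- and 0 of 6 in PRELP-/-, where 4 had an unadjusted p under 0.05, DESeq2 called 4 and limma-voom 3. By edgeR 0 of 8 endothelium markers were called in OMD-/- (6 at an unadjusted p under 0.05, 3 by DESeq2 and 8 by limma-voom) and 0 of 8 in PRELP-/- (1, 1 and 8). For smooth muscle 0 of 9 were called in OMD-/- (0, 0 and 0 by the same measures) and 0 of 9 in PRELP-/- (8, 4 and 5, all lower). For blood the counts were 0 of 5 in OMD-/- (1, 1 and 0) and 0 of 5 in PRELP-/- (5, 3 and 2, all higher). No adipocyte, Y-linked or Xist gene was called against WT by edgeR, DESeq2 or limma-voom, with 0 at an unadjusted p under 0.05, and of 2 hepatocyte genes tested limma-voom alone called 1, in PRELP-/-. Smooth muscle markers summed to 337 to 1390 CPM in WT and 256 to 275 CPM in PRELP-/-. Ly6g, which defines neutrophils, was at 0 counts throughout, no neutrophil marker passed the filter, and of the 6 adipocyte genes Adipoq, Plin1, Lep, Cidec and Retn had at most 3 counts in any library, whereas Fabp4, which endothelial cells also express, had 520 to 1919 CPM.

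Genes outside the list whose log2 CPM followed a member most closely over the 10 libraries, of 13053 compared, were for the C1q chains together Dnase1l3 (r = 0.979), H2-Ab1 (0.972) and H2-DMa (0.97). For C3 they were Enpp2 (0.987), Jchain (0.985) and Pik3ap1 (0.984), and among those for C4b were Tpcn1 (0.99) and Loxl1 (0.989). For Serping1 they were Lclat1 (0.994), Por (0.992) and Fn1 (0.992), and for Cfb Rnf219 (0.975), Cers4 (0.973) and Emilin2 (0.971). Each is among the highest of many correlations over few libraries that share groups and scaling, and is a description.

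The rest of the pathway was followed in 46 further genes. Of these 8 had at most 3 counts in every library, 3 of them (Mbl1, Fcnb and C8b) 0 in all, which allows a level of up to 0.0598 to 0.17 CPM per library, and 30 passed the filter against WT. In OMD-/- 11 of 30 were called higher, where 14.3% of all genes tested were, and 3 lower, where 15.1% were, and the median log2 fold change was 0.52. In PRELP-/- 0 were called higher and 2 of 30 lower by edgeR, near the 1.4% and 5.89% of all genes tested, with 11 of 30 at an unadjusted p under 0.05, a median of 0.19, 7 calls by DESeq2 and 16 by limma-voom, and without replicate 1 there were 9, 6 of them higher. Between the knockouts 0 of 29 passed by edgeR and by DESeq2, 5 by limma-voom and 4 at an unadjusted p under 0.05.

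Among initiators, C2, the partner of C4 in the classical C3 convertase, had 6.10 to 8.91 CPM in WT and 12.4, 15.0 and 16.5 CPM in OMD-/-, a change of 0.91 (adjusted p = 0.00255). Properdin (Cfp), which stabilises the alternative convertase, had 7.21 to 12.3 CPM in WT and 13.5, 19.3 and 26.0 CPM in OMD-/- (0.96, adjusted p = 0.0125), and the C1r-like protease gene C1rl changed by 0.85 (adjusted p = 0.00801). All of these OMD-/- libraries were above WT, and the calls of Cfp and C1rl were lost without OMD-/- replicate 3 (adjusted p = 0.0616 and 0.0516). In PRELP-/- these 3 genes changed by 0.51, 0.64 and 0.59, none of which passed (adjusted p = 0.18, 0.0962 and 0.0932).

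C4a went the other way from its neighbour C4b. It was counted 48, 17, 24 and 21 times in WT, 1, 1 and 6 times in OMD-/- and 2, 0 and 1 times in PRELP-/-. Each WT library was therefore above each knockout library, although the level in WT was low, 0.924 ± 0.134 CPM (SD, n = 4). The call was made in OMD-/- (-2.89, adjusted p = 0.00437) and in PRELP-/- (adjusted p = 0.00735), where against a floor of 3 counts per library the level was at least 6.47-fold lower. It passed in every fit that left out 1 library. In PRELP-/- it passed in 13 of 15 alternative fits, and not with the replicate block or with only WT replicates 1 and 2 (adjusted p = 0.117 for the latter). The annotation used here lists C4a as a processed transcript, and even the 90-base stretch shown above, chosen as the richest in differences, holds 14 of them. The mean level of C4a in CPM was 1.38% of that of C4b in WT, 0.0802% in OMD-/- and 0.0419% in PRELP-/-.

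Of the terminal components, C7 had 41.4 to 54.7 CPM in WT, 46.8 to 50.0 CPM in OMD-/- and 12.2, 53.5 and 53.3 CPM in PRELP-/-. No terminal gene was called in OMD-/-, where C7 changed by 0.019 (adjusted p = 0.913), 0 of 3 tested had an unadjusted p under 0.05, and DESeq2 and limma-voom called 0. The low library is again PRELP-/- replicate 1.

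Membrane regulators, which protect host cells, moved in both directions. Cd55, or decay-accelerating factor, had 58.3 to 69.1 CPM in WT, 49.2, 45.5 and 43.4 CPM in OMD-/- and 44.8, 47.0 and 50.5 CPM in PRELP-/-. It fell in OMD-/- (-0.51, adjusted p = 0.00207), and in PRELP-/- it was below WT in all 3 libraries without passing (-0.48, adjusted p = 0.0588). Cd46 encodes a cofactor for cutting C3b and C4b, and its exons share 1079 bases with the gene A330023F24Rik on the other strand. As the strand setting of the counts is not given, the Cd46 values may include reads of that gene. Cd46 had 3.17 to 5.76 CPM in WT, 1.37, 1.06 and 0.823 CPM in OMD-/- and 2.16, 1.24 and 1.52 CPM in PRELP-/-. It fell in OMD-/- (-2.02, adjusted p = 0.000671) and in PRELP-/- (-1.46, adjusted p = 0.021). The latter call was lost without WT replicate 2, 3 or 4 or PRELP-/- replicate 2 or 3 (adjusted p = 0.0528 to 0.0851). Crry (Cr1l), the broad rodent convertase inhibitor, was called slightly higher in OMD-/- (0.29, adjusted p = 0.0138), as were clusterin (Clu, 0.64, adjusted p = 0.00227), which binds terminal complexes, and Csmd1 (1.70, adjusted p = 0.0302). Clu had 282 to 392 CPM in WT and 520 to 549 CPM in OMD-/-, without overlap, whereas Csmd1, at 0.177 to 0.658 CPM in WT, overlapped. Csmd1 lost its call without WT replicate 2, 3 or 4 or OMD-/- replicate 2 or 3 (adjusted p = 0.0528 to 0.145), and Cr1l without OMD-/- replicate 3 (adjusted p = 0.055).

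Complement receptors, most of them on leukocytes, were higher in OMD-/- for 5 of 8 tested. C3ar1, the receptor of the C3a fragment, had 7.76, 7.51, 9.57 and 9.35 CPM in WT and 9.57, 19.6 and 19.2 CPM in OMD-/-, with replicate 1 at the top of the WT range (0.92, adjusted p = 0.0143). C5ar2 changed by 1.01 (adjusted p = 0.00608) and the integrin chains of complement receptors Itgax and Itgb2 by 1.41 (adjusted p = 0.0145) and 0.999 (adjusted p = 0.00496). Cr2, the receptor on B cells, had 0.319 to 0.931 CPM in WT and 1.79, 6.74 and 6.12 CPM in OMD-/- (2.74, adjusted p = 0.00296). In Itgax and Cr2, as in the lymphocyte sum, OMD-/- replicates 2 and 3 were far above replicate 1. The calls of C3ar1 and Itgax were lost without OMD-/- replicate 2 (adjusted p = 0.0709 and 0.0539) or replicate 3 (0.0702 and 0.0569). C5ar1 was not called (0.25, adjusted p = 0.440). No receptor was called in PRELP-/- by edgeR or DESeq2, where 1 of 8 had an unadjusted p under 0.05 and limma-voom called 4. There C3ar1 changed by 0.38 (adjusted p = 0.167) with all 3 libraries above WT.

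**Figure D4:**
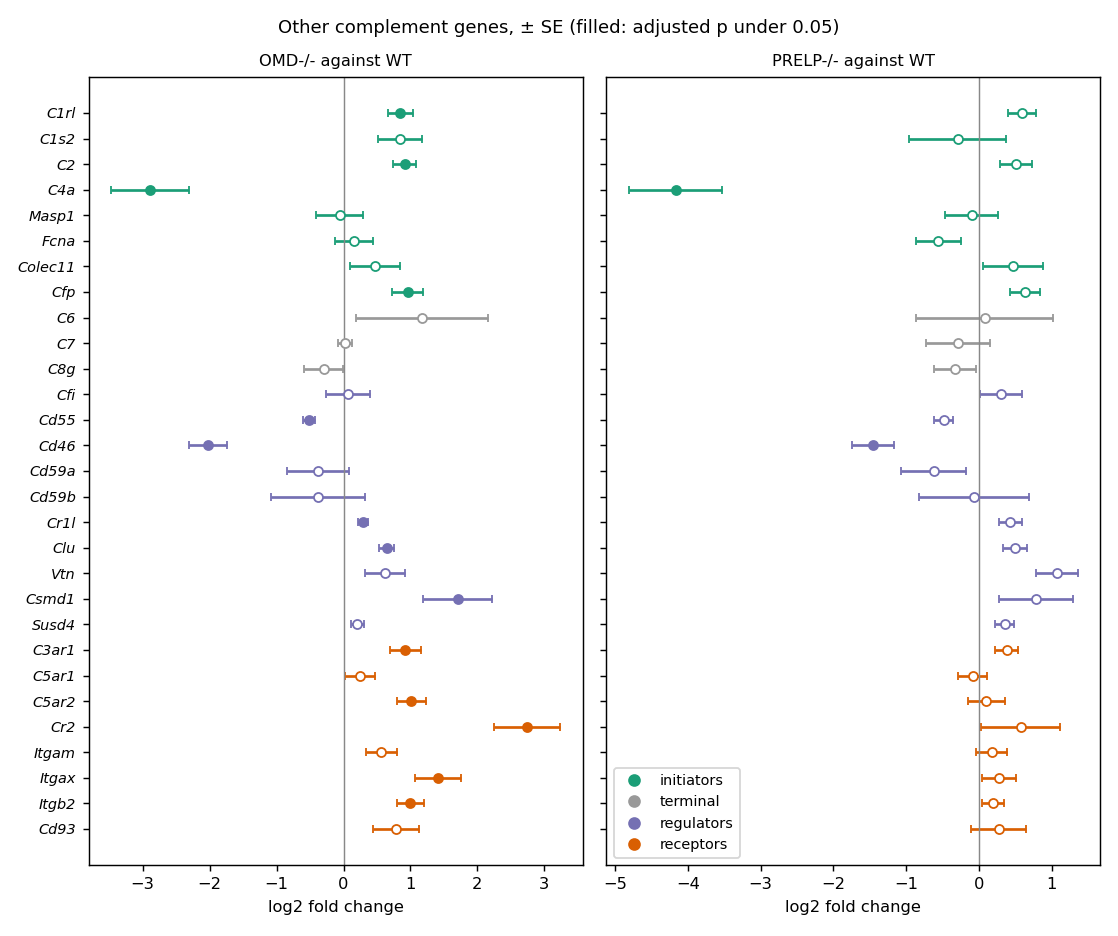
Log2 fold change of 29 of the 30 other complement genes tested against WT, with the SE as bars and colours for their roles; filled points passed an adjusted p of 0.05. In OMD-/- 11 filled points lie above 0 and 3 below, C4a being the lowest at -2.89, and in PRELP-/- only C4a and Cd46 are filled.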

How the data were processed

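Poly(A) RNA of mouse bladder tissue was sequenced from strand-marked libraries with molecular identifiers. The authors deposited 1 table of read counts per gene and library, made per the file headers from HISAT2 alignments; the submitters' processing notes name featureCounts, STAR 2.5.2b, bcl2fastq and DESeq2 and the builds GRCm38 and hg38. The strand setting, use of the identifiers and annotation are not given in the sources used here. The 2 deposited tables of the authors' own DESeq2 comparisons were not used.

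Genes were placed with GENCODE vM21 (GRCm38), which holds all 55536 identifiers. Each pair of groups was fitted by itself with edgeR 4.0.16 in R 4.3.3 (filterByExpr, TMM scaling, robust quasi-likelihood test, Benjamini-Hochberg adjustment over all genes tested, threshold 0.05), as tested on simulated data. Levels are CPM scaled by TMM over all libraries, log2 CPM has a prior count of 2, and floors (3 counts) cover counting error only. The SE of a fold change was taken from the quasi-likelihood test. Alternatives were DESeq2 1.42.0, limma 3.58.1 (voom with sample weights), RLE scaling, no filter, a replicate block, the Y-gene level as covariate, WT replicates 1 and 2 or 3 and 4 only, and each library left out. Same-numbered OMD-/- and PRELP-/- libraries deviated together (r = 0.303, 0.181 and 0.148), above the threshold of 0.1 set for pairing. The labels name no pairs, and in each of these groups replicate 1 differed most from its group-mates. Whether that alone gave these r was not tested. Same-numbered libraries of WT and either knockout did not deviate together as a set (r = -0.0998 to 0.137), although replicate 2 of WT and PRELP-/- (0.137) exceeded that threshold.

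The members and all gene lists were chosen with earlier results of these data known. Named were every member, Omd and Prelp, other complement genes past the threshold against WT with C4a, C1rb, C1s2, C2, C3ar1, C5ar1, Cfd and Cfp, and for each pattern the 3 most correlated protein-coding genes of at least 1 CPM; marker lists were summed. A few genes and 1 list chosen in this way are not reported here.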

Additional observations from a re-analysis of the deposited data

Results flagged for a closer look

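Among 39 sets of 4 WT values tested with Dixon's criterion, which chance passes in about 1 of 20, 4 held a library far from the other 3. WT replicate 1 was low for C1qc, at 34.9 CPM, with a gap of 0.863 of the range of 34.9 to 41.5 CPM. The same library was low for Cfb, at 0.938 CPM, with a gap of 0.867 of the range up to 1.75 CPM, and for Cr2, at 0.319 CPM, with a gap of 0.927 of the range up to 0.931 CPM. WT replicate 4 was low for Vtn, the vitronectin gene, at 0.975 CPM, with a gap of 0.842 of the range up to 1.92 CPM. WT replicate 1 was also the deepest library.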

How the results depend on the processing

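In OMD-/- against WT no fold change of a member was reversed in 15 alternative fits; 126 values kept their side of the threshold and 9 lost it, for C3 and C1qb only. Fits without 1 library called 8 to 9 members, 8 to 16 other complement genes (14 with all libraries) and 2951 to 4850 genes in all (4899), with the lowest other complement and total counts without OMD-/- replicate 3.

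In PRELP-/- against WT 95 values of members kept their side, 28 lost and 10 gained it. The 3 members called became 8 with limma-voom, 1 with the Y-gene covariate, and 0 with the replicate block, with WT replicates 1 and 2 only or with WT replicates 3 and 4 only, and 0 to 7 without 1 library. The 2 other complement genes called became 7 with DESeq2, 16 with limma-voom, 0 with the block and 0 with WT replicates 1 and 2 only, and 1 to 9 without 1 library. All genes called, 1209 (232 higher), became 2542 with DESeq2 (928 higher), 6973 with limma-voom (3402 higher), 115 with the block (0 higher), 119 with WT replicates 1 and 2 only (1 higher) and 453 with WT replicates 3 and 4 only (53 higher), and 475 to 3807 without 1 library. C1s1, at -0.018 to 0.55 without 1 library, was reversed without PRELP-/- replicate 3, as was C3 with WT replicates 3 and 4 only (-0.069).

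In PRELP-/- against OMD-/- limma-voom called 3 members and 5 other complement genes. The 1 gene called in all became 87 with DESeq2, 5 without the filter, 1012 with limma-voom, 43 with the block, 4 with the Y-gene covariate and 1 to 36 without 1 library. That covariate reversed C1ra (0.31), C1s1 (0.18), C3 (0.20), C4b (0.35), Cfb (0.33) and Serping1 (0.14), none near the threshold (adjusted p = 1). The cause of these changes was not tested. The WT and knockout replicates share only numbers, so calls lost under the block carry no statement on size. Depth limits Cfb, C4a and Csmd1.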

Other observations

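Near-identical copies of the C1 protease genes were counted at low levels and unevenly. C1rb, the copy of C1ra, had 111 counts (6.31 CPM) in PRELP-/- replicate 1 and 0 to 11 counts in each of the other 9 libraries. C1s2, the copy of C1s1, had 1 count in that library and 0.709 to 1.87 CPM in the others, and its change in OMD-/- was 0.84 (adjusted p = 0.0803 by edgeR). In the same library C1ra and C1s1 were each at their lowest of the 10.

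Complement factor D (Cfd), the protease that cuts factor B, was at 1, 1, 7 and 11 counts in WT and at 0 in all 6 knockout libraries, so its level in WT rested on 2 libraries. Masp2, a protease of the lectin pathway whose exons overlap Tardbp, had 0.131 to 0.499 CPM in WT, at most 3 counts in OMD-/- and 0 in PRELP-/-. Neither passed the filter on low counts, and neither was tested.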
